A study of Mus musculus with 6 samples.

Results

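The genes described here copy DNA or prepare the cell for S phase, the part of the cell cycle in which the genome is duplicated. The list named 46 of them. A gene entered if a probe set of the array carried its symbol and no other, and where several such probe sets existed, the brightest on average was taken. This gave 45 of the 46 genes, among 22180 genes measured in all. The one probe set that lists Rfc4 also lists another gene, so Rfc4 was not analysed here.

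RNA came from cells sorted out of mouse gliomas, which the labels name tumor-associated endothelial cells, after magnetic selection for CD105 (endoglin) and 12 h in medium conditioned by glioma. The sample titles give all 6 mice floxed Pfn1 alleles (Pfn1fl/fl) together with Y129F, a form of profilin-1 in which a tyrosine is replaced by phenylalanine. The titles do not say whether this form is made in mice without Cre. Mice 1, 3 and 4 also carried Tie2-Cre (genotype Tie2-Cre,Pfn1fl/fl:Y129F), and mice 6, 7 and 10 did not (genotype Pfn1fl/fl:Y129F, below no Cre). Each mouse gave 1 array, and the mouse is the replicate. The Tie2 (Tek) promoter is active in endothelial cells and also in blood cell lineages, and the controls lack Cre itself, so an effect of the Cre enzyme cannot be told apart from that of the recombined alleles. Age and strain are not given in the sources used here.

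DNA replication starts when the origin recognition complex, CDC6 and CDT1 load a ring of MCM2 to MCM7 onto DNA in G1, and geminin later blocks reloading. At the start of S phase CDC45 and GINS join the ring to form the active helicase, DNA polymerase alpha with primase lays down primers, and polymerases epsilon and delta extend the leading and lagging strands with PCNA as their sliding clamp. Many of these genes are transcribed at the G1/S transition by E2F factors once cyclin and CDK activity has inactivated the retinoblastoma proteins, and they are low in cells that do not divide. Endothelial cells of healthy adult vessels seldom divide, and those of growing tumors divide more often. Levels below are log2 of the deposited RMA intensity, a unit without an absolute scale that differs between probe sets. A change is the mean of the Tie2-Cre arrays minus the mean of the no Cre arrays in log2 units, with its standard error (SE) from limma, and a gene passed when its Benjamini-Hochberg adjusted p over all 22180 genes lay under 0.05.

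Several properties of the arrays touch every comparison below. Pfn1, the targeted gene, lay at 12.41, 12.41 and 12.42 with Tie2-Cre and at 12.38, 12.34 and 12.39 without Cre, and its probe set was not shown to lie within the floxed part. Xist spanned 5.36 to 6.06 with Tie2-Cre, against 11.16 to 11.44 without Cre, and the Y-linked genes Uty, Eif2s3y and Kdm5d were higher on all 3 Tie2-Cre arrays, so the groups also differ by sex, and genotype and sex cannot be told apart. Of 12 endothelial markers, 1 passed: Eng, the sorting antigen, was lower (change -0.30), and the summed intensity of the list was 4278 to 4376 with Tie2-Cre and 5075 to 5253 without Cre. Eng made up most of that sum: without it the sums were 830 to 893 and 880 to 898, which overlap, and of the 12 changes 6 were below 0 and 6 above, with a mean of -0.05. The other 11, among them Pecam1 at 6.23 and Cdh5 at 6.89, lay between 4.27 (Emcn) and 7.31 (Egfl7) in mean level, beside 7.12 for the median gene, which does not by itself show absence because no detection call came with the values. Pericyte and smooth muscle markers were higher in 6 of 11 and lower in 0, with a summed intensity of 30708 to 36690 with Tie2-Cre and 21739 to 23119 without Cre. Their mean levels ran from 7.07 (Abcc9) to 13.54 (Acta2). Fibroblast markers were higher in 4 of 10 and lower in 1 (20959 to 23590 against 19480 to 19740), mesothelial and epithelial markers lower in 3 of 9 (1389 to 1578 against 3409 to 3793), and macrophage and microglia markers lower in 3 of 14 and higher in 1 (1840 to 1969 against 1923 to 2157, which overlap). Bright genes weigh most in such sums. The median change was 0.47 for pericyte and smooth muscle markers and 0.08 for fibroblast markers (range -0.76 to 3.54). It was -0.14 for mesothelial and epithelial markers (range -3.29 to 0.09) and -0.04 for macrophage and microglia markers. Of 9 T and NK cell markers 0 passed, and of 9 glioma and astrocyte markers 1 was higher. Beside these counts, 7.17% of all genes were lower and 4.78% higher. The part of sex and of cell makeup in the changes below was not tested. In such bulk RNA, fewer dividing cells and less of these RNAs per cell cannot be told apart.

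Replication genes were lower with Tie2-Cre. Of the 45 genes, 28 (62.2%) were lower, 0 were higher and 17 did not pass, beside 7.17% of all genes lower and 4.78% higher. The largest fall was that of Rrm2, a subunit of the enzyme that makes deoxynucleotides, at 2.04-fold, followed by Chaf1b, which helps to put histones onto new DNA, at 1.96-fold. In 43 of the 45 the change was below 0, beside 51.1% of all genes, and the median change was -0.53, beside -0.0042 over all genes. The 3 Tie2-Cre arrays lay below all 3 no Cre arrays in 34 of the 45 genes, beside 17.5% of all genes, and above them in 0. Folds of at least 1.5 downward were seen in 18 of the 45, beside 2.48% of all genes, and of at least 2 in 1 (Rrm2), beside 0.771%. Leaving out any 1 mouse left 22 to 26 of the genes lower and a median of -0.58 to -0.46. The counts over all genes moved more: lower genes numbered 1046, 1022, 910 and 1026 in place of 1591 when mouse 1, 6, 7 or 10, in that order, was left out. Higher genes numbered 667, 676 and 634 in place of 1061 when mouse 6, 7 or 10 was left out.

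**Figure D1:**
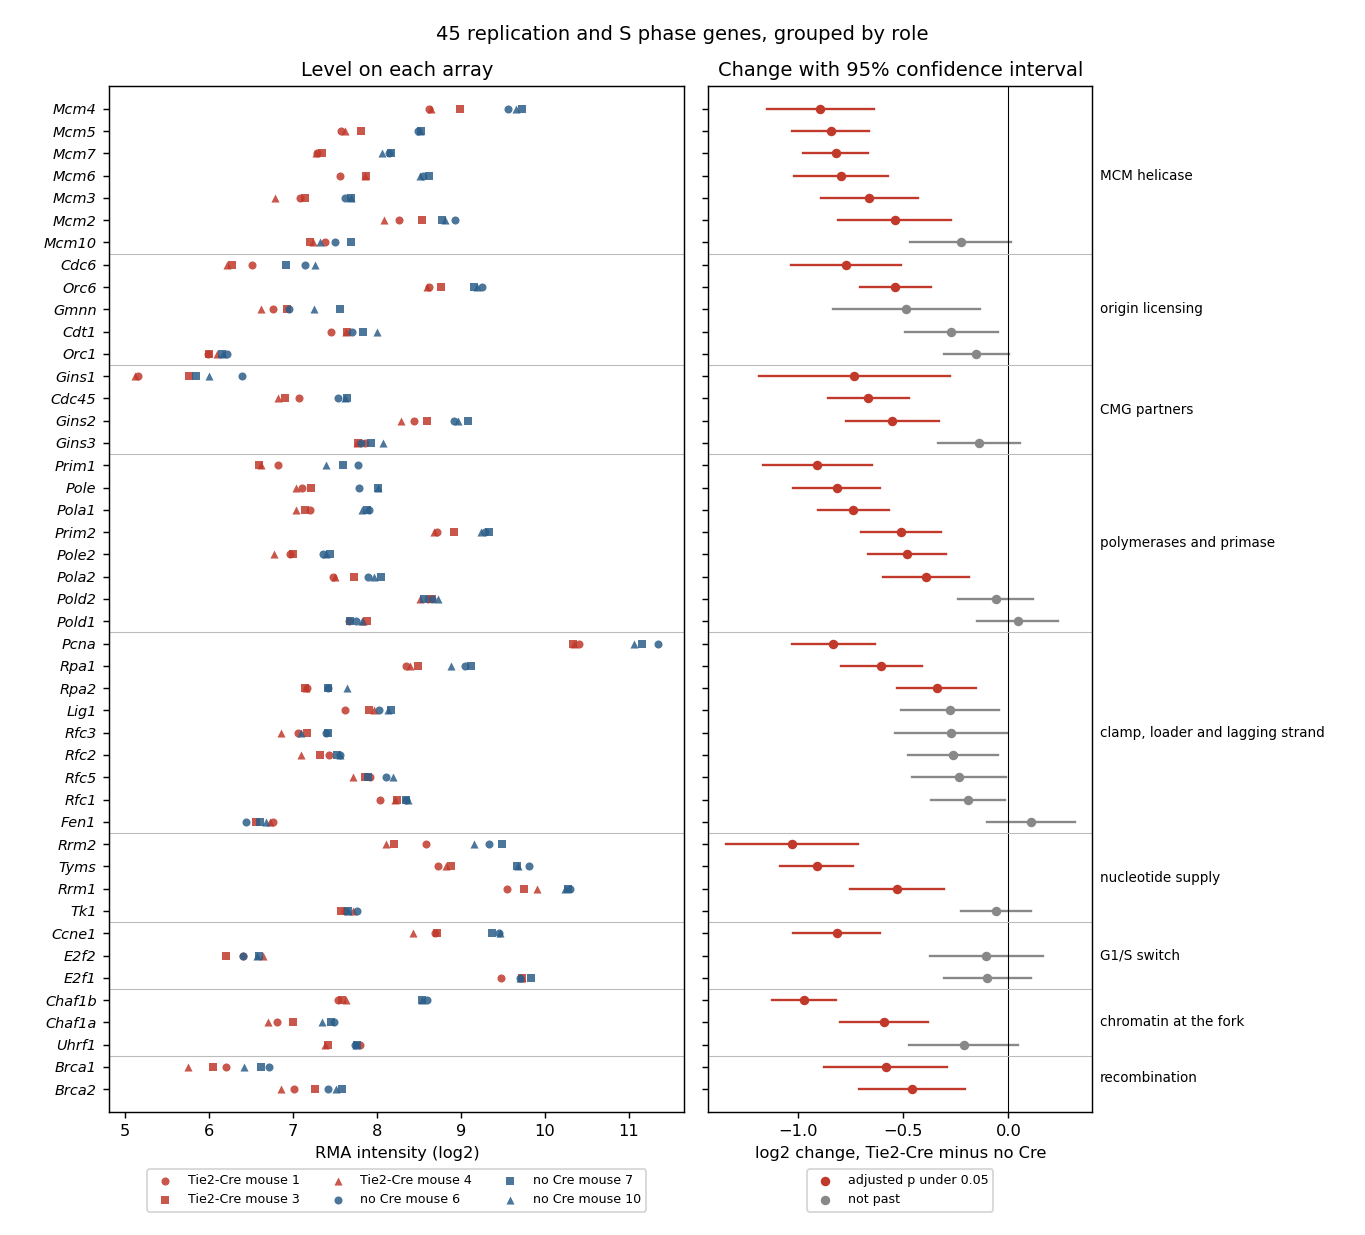
Left, log2 RMA intensity of each of the 45 genes on each of the 6 arrays (red, Tie2-Cre; blue, no Cre; the marker shape gives the mouse). Right, the log2 change with its 95% confidence interval from limma, in red for the 28 genes past the threshold and grey for the 17 others; the red intervals all lie below 0, from Rpa2 (-0.34) to Rrm2 (-1.03).

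**Figure D2:**
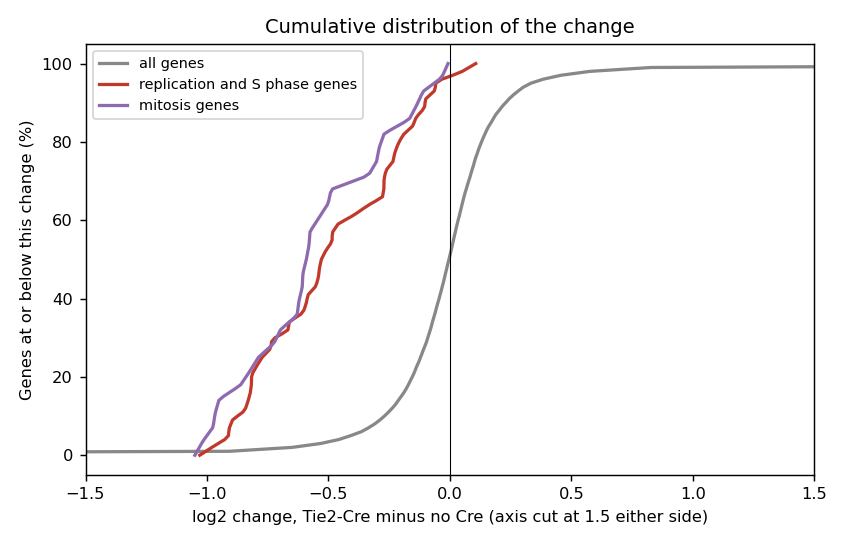
Percentage of genes (vertical axis) whose log2 change is at or below the value on the horizontal axis, for all 22180 genes, the 45 replication and S phase genes and 29 mitosis genes. The curve of all genes crosses the middle near 0 (median -0.0042), and those of the replication and mitosis genes cross it at -0.53 and -0.59.

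Many of these genes are known E2F targets, and their promoters were read for the letters of E2F sites. RefSeq promoters (mouse build GRCm38.p6, 250 bases before to 50 after the start of a transcript) were found for 39 of the 46 genes. The octamers TTTCCCGC, TTTGGCGC, TTTCGCGC and TTTGCCGC were searched on both strands, and neighbouring matches may overlap. At least 1 stood in the promoters of 16 of the 39 genes (41.0%), beside 2.61% of all 27025 genes with a promoter and 2.26% of all 32851 promoters. In this search they were not more frequent in the genes that passed: 8 of the 23 lower genes with a promoter held one, and so did 8 of the 15 that did not pass. Other variants of the E2F site were not searched, and the difference between these shares was not tested. The windows below, with 20 bases on each side where the promoter allows, are shown because they carry the octamers (in capitals) of MCM ring genes and other genes that were lower.
Mcm3, chr1:20820263-20820313, minus strand: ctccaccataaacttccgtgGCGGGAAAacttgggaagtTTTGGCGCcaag
Mcm5, chr8:75109336-75109387, plus strand: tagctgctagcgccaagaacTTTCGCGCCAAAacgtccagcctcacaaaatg
Mcm6, chr1:128359784-128359835, minus strand: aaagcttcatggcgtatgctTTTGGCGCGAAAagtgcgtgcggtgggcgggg
Mcm7, chr5:138171840-138171887, minus strand: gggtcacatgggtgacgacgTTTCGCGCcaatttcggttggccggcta
Cdc6, chr11:98907993-98908040, plus strand: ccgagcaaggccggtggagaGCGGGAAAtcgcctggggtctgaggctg
Pola1, chrX:93632266-93632313, minus strand: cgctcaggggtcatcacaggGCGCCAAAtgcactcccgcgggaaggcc
Pole2, chr12:69228153-69228200, minus strand: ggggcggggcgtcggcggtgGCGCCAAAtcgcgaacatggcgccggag

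Each is written 5′ to 3′ on the strand of its gene. Mcm6 held 3 octamers in all, and Mcm3, Mcm5 and Mcm7 held 2 each. Of the other ring genes, Mcm2 held 0, and no promoter was found for Mcm4. Brca2, also lower, held 1 that is not shown. In Mcm5 and Mcm6 a pair of octamers on opposite strands overlaps within the capitals. The next windows are shown for contrast, from an origin recognition gene, a polymerase delta gene and a clamp loader gene that hold the same letters and did not pass.
Orc1, chr4:108579407-108579454, plus strand: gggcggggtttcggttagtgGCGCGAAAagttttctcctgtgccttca
Pold1, chr7:44548766-44548796, minus strand: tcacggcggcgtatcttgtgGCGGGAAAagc
Rfc3, chr5:151651181-151651238, minus strand: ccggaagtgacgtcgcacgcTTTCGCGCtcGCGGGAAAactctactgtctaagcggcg

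Rrm2, with the largest fall, held none of the 4 octamers in its promoter, but held the letters CCAAT, the core of a promoter element of many cell cycle genes, 50 bases before the start (capitals).
Rrm2, chr12:24708184-24708228, plus strand: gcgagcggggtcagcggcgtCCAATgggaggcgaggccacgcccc

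CCAAT on either strand stood in 24 of the 39 genes (61.5%), beside 41.1% of all genes with a promoter. The letters TTTGAA, the core of an element of mitotic gene promoters, stood in 6 of 39 (15.4%), beside 20.2% of all genes. In 26 mitosis genes with a promoter, which were read for comparison, the octamers stood in 1, CCAAT in 20 and TTTGAA in 18. These are matches of letters, not measured binding sites.

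All 6 genes of the MCM2 to MCM7 ring, the motor of the replicative helicase, were lower. Mcm7 lay at 7.29, 7.35 and 7.27 in Tie2-Cre mice 1, 3 and 4 and at 8.15, 8.17 and 8.07 in no Cre mice 6, 7 and 10. Its change of -0.82 (SE 0.067, adjusted p 0.000266) was a 1.77-fold fall, and the groups were far apart against the spread within them. Mcm5 lay at 7.57, 7.81 and 7.62 against 8.49, 8.53 and 8.51 (change -0.84, adjusted p 0.00054). Mcm4 had the largest change of the ring: 8.62, 8.99 and 8.65 against 9.56, 9.72 and 9.65 (change -0.89, SE 0.11). The groups did not overlap in these genes, nor in Mcm6 (-0.80) and Mcm3 (-0.66). All Tie2-Cre arrays lay below all no Cre arrays in 17.5% of all genes. Mcm2 changed least (-0.54, SE 0.12, adjusted p 0.0208), with 8.26, 8.54 and 8.09 against 8.93, 8.77 and 8.82, and its Tie2-Cre arrays spread most. It did not pass when mouse 1, 6, 7 or 10 was left out (adjusted p of 0.0691, 0.0715, 0.0526 and 0.0641 in that order). Mcm10, which helps to activate the loaded ring but is no part of it, did not pass (-0.23, 95% confidence interval -0.47 to 0.01, adjusted p 0.227), and its groups overlapped.

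Of the 5 genes that load the ring or control its loading, 2 were lower. Cdc6, the loader ATPase, lay at 6.51, 6.28 and 6.22 with Tie2-Cre and at 7.14, 6.92 and 7.26 without Cre, which is 1.71-fold lower (change -0.77, SE 0.11, adjusted p 0.00394). Orc6, a subunit of the origin recognition complex, lay at 8.62, 8.76 and 8.60 against 9.25, 9.16 and 9.19 (change -0.54, SE 0.073, adjusted p 0.00276). Its largest subunit, encoded by Orc1, changed by -0.15 and did not pass (interval -0.31 to 0.00, adjusted p 0.203). Cdt1, the partner of CDC6 in loading, and Gmnn, which encodes its inhibitor geminin, did not pass either. Cdt1 changed by -0.27 (interval -0.49 to -0.05, adjusted p 0.121). Gmnn lay at 6.77, 6.93 and 6.62 against 6.96, 7.56 and 7.25, a change of -0.49 with a wide interval of -0.83 to -0.14 (adjusted p 0.0828). The no Cre arrays of Gmnn spread more than those of the other genes of this group, and with mouse 6 left out it passed (-0.63, adjusted p 0.029). In all 5 genes the Tie2-Cre arrays lay below all no Cre arrays, beside 17.5% of all genes.

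The partners that switch the ring on gave 3 lower genes of 4. Cdc45 lay at 7.08, 6.90 and 6.82 with Tie2-Cre and at 7.54, 7.64 and 7.62 without Cre (change -0.67, SE 0.084, adjusted p 0.0019). Gins2, a subunit of the GINS complex, lay at 8.44, 8.60 and 8.28 against 8.92, 9.09 and 8.97 (change -0.55, SE 0.095, adjusted p 0.0083). The groups overlapped in neither gene, beside 17.5% of all genes with every Tie2-Cre array below every no Cre array. Gins1 passed narrowly (-0.73, SE 0.20, adjusted p 0.0498): its arrays lay at 5.16, 5.77 and 5.13 against 6.40, 5.85 and 6.01, so that Tie2-Cre mouse 3 stood close to no Cre mouse 7. It did not pass when mouse 1, 4, 6, 7 or 10 was left out (adjusted p between 0.0618 and 0.151). Gins3 did not pass (-0.14, interval -0.33 to 0.06), and its groups overlapped.

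Among the polymerases, 4 of 4 genes of polymerase alpha with primase and both listed genes of polymerase epsilon were lower, and of the listed genes of polymerase delta 0 of 2 passed. Prim1, the catalytic primase subunit, lay at 6.82, 6.59 and 6.62 with Tie2-Cre and at 7.78, 7.59 and 7.39 without Cre, a 1.88-fold fall (change -0.91, SE 0.11, adjusted p 0.00177). Pole, the catalytic subunit of the leading strand polymerase, lay at 7.11, 7.22 and 7.04 against 7.78, 8.02 and 8.01 (change -0.82, SE 0.089, adjusted p 0.00105). In both, each Tie2-Cre array lay clearly below each no Cre array, an order seen in 17.5% of all genes. Pola1, the catalytic subunit of polymerase alpha, changed by -0.74 (SE 0.073), and it is the 1 gene of the 45 on the X chromosome, in groups that differ by sex. The other primase subunit Prim2 changed by -0.51 (SE 0.082) and the epsilon subunit Pole2 by -0.48 (SE 0.08). Pola2, an accessory subunit of polymerase alpha, changed by -0.39 (SE 0.089, adjusted p 0.0261), but did not pass with mouse 1, 4, 6, 7 or 10 left out (adjusted p between 0.0506 and 0.0936). For polymerase delta, Pold1, its catalytic subunit, lay at 7.67, 7.89 and 7.83 against 7.75, 7.68 and 7.83. Its change was 0.04, with an interval of -0.15 to 0.23 that does not reach that of Pole (-1.02 to -0.61). Pold2 changed by -0.06 (interval -0.24 to 0.11). Further subunits, counted below among the other origin and fork genes and named after their values were seen, narrow the contrast. Of epsilon, Pole3 was lower (-0.31, adjusted p 0.0277) and Pole4 did not pass (-0.09, adjusted p 0.542). Of delta, Pold3 did not pass but had groups that did not overlap (-0.28, interval -0.46 to -0.10, adjusted p 0.0533), and Pold4 changed by 0.04 (adjusted p 0.843). The difference between the polymerases was not itself tested.

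The sliding clamp was lower and its loader was not past the threshold. Pcna lay at 10.40, 10.33 and 10.34 with Tie2-Cre and at 11.35, 11.16 and 11.06 without Cre (change -0.83, SE 0.086, adjusted p 0.000846), a 1.78-fold fall with no overlap. Such a separation downward was seen in 17.5% of all genes. Of the 4 measured subunits of replication factor C, which opens PCNA and puts it onto DNA, Rfc1, Rfc2, Rfc3 and Rfc5, 0 passed. Their changes were alike, from -0.27 (Rfc3) to -0.19 (Rfc1), with adjusted p from 0.115 to 0.192. All 4 had an unadjusted p under 0.05, but so did 5524 of all 22180 genes. The genes of replication protein A, which coats single-stranded DNA, were both lower. Rpa1 lay at 8.34, 8.49 and 8.40 against 9.04, 9.12 and 8.88 (change -0.60, SE 0.083, adjusted p 0.00295). Rpa2 changed by -0.34 (SE 0.081, adjusted p 0.0318), but it did not pass when any of the 6 mice was left out (adjusted p between 0.0547 and 0.0881). The call of Rpa1 held in each of these.

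On the lagging strand, the ligase gene Lig1 (-0.28, interval -0.51 to -0.05, adjusted p 0.128) and the flap endonuclease gene Fen1 did not pass, but Fen1 depended on the probe set. The brighter of its 2 probe sets, used here, lay at 6.76, 6.56 and 6.73 with Tie2-Cre and at 6.45, 6.61 and 6.68 without Cre (change 0.11, interval -0.10 to 0.31). The dimmer lay at 6.21, 6.29 and 6.04 against 6.60, 6.57 and 6.53 (change -0.39, SE 0.082, adjusted p 0.0199 among all probe sets with a single symbol). The first overlapped between the groups and the second did not, and which of them follows Fen1 RNA was not tested. Pole, Rpa1 and Rrm2 also had 2 probe sets each. The dimmer one of Rrm2, at levels of 3.73 to 4.35, was lower too (-0.44, adjusted p 0.0183). That of Pole, at 5.66 to 5.96 (change -0.11), and that of Rpa1, at 5.23 to 5.54 (change -0.04), did not pass.

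Of the genes that supply deoxynucleotides, 3 of 4 were lower. Rrm2, the regulated small subunit of ribonucleotide reductase, lay at 8.58, 8.21 and 8.11 with Tie2-Cre and at 9.33, 9.49 and 9.16 without Cre (change -1.03, SE 0.14, adjusted p 0.0024). Rrm1, the large subunit, lay at 9.55, 9.75 and 9.91 against 10.30, 10.27 and 10.23 (change -0.53, SE 0.096, adjusted p 0.0104). Tyms, thymidylate synthase, which makes the thymidine precursor, lay at 8.72, 8.88 and 8.83 against 9.81, 9.67 and 9.68 (change -0.91, SE 0.076, adjusted p 0.000299). None of these 3 genes overlapped between the groups, beside 17.5% of all genes with every Tie2-Cre array below every no Cre array. Tk1, the cytosolic thymidine kinase, lay at 7.62, 7.58 and 7.72 against 7.77, 7.66 and 7.66, and its interval of -0.22 to 0.11 lies apart from that of Tyms (-1.09 to -0.74).

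At the G1/S switch, the cyclin gene was lower and the E2F genes did not pass. Ccne1, which encodes the cyclin that drives CDK2 into S phase, lay at 8.69, 8.72 and 8.44 with Tie2-Cre and at 9.46, 9.38 and 9.46 without Cre (change -0.82, SE 0.09, adjusted p 0.00109). E2f1, an activator of many genes on this list, lay at 9.48, 9.73 and 9.73 against 9.70, 9.83 and 9.70. The groups overlapped, and its change of -0.10 had an interval of -0.31 to 0.11. E2f2, also an activator, changed by -0.10 as well (interval -0.37 to 0.16).

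Chromatin genes of the fork gave 2 lower of 3. Chaf1b, a subunit of chromatin assembly factor 1, had the smallest adjusted p of the 45 genes: it lay at 7.54, 7.59 and 7.64 with Tie2-Cre and at 8.60, 8.54 and 8.54 without Cre (change -0.97, SE 0.065, adjusted p 0.000114). Each group spanned about 0.1 or less, against a distance between them of nearly 1 log2 unit. Chaf1a, its partner, changed by -0.59 (SE 0.091, adjusted p 0.00496). Uhrf1, which recruits the maintenance DNA methyltransferase to new DNA, lay at 7.80, 7.42 and 7.39 against 7.73, 7.77 and 7.75 and did not pass (-0.21, interval -0.47 to 0.04). Tie2-Cre mouse 1 stood apart there, above the no Cre arrays, and without it Uhrf1 passed (-0.34, adjusted p 0.0306). The recombination genes Brca1 (-0.58, SE 0.13, adjusted p 0.0224) and Brca2 (-0.46, SE 0.11, adjusted p 0.0317), whose products protect and repair forks, were both lower. Brca1 did not pass with mouse 3, 6 or 7 left out (adjusted p between 0.0562 and 0.0756), nor Brca2 with mouse 1, 4, 6, 7 or 10 left out (between 0.0576 and 0.107).

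By role, the arrays of the groups stood apart in every set but the G1/S genes. For each gene the mean over the 6 arrays was subtracted, and the median over the 45 genes was then -0.26, -0.17 and -0.35 in Tie2-Cre mice 1, 3 and 4 and 0.25, 0.29 and 0.24 in no Cre mice 6, 7 and 10. The 3 no Cre mice were close together, and the Tie2-Cre mice spread more: the median SD of a gene was 0.126 with Tie2-Cre and 0.079 without Cre, beside 0.102 and 0.0892 over all genes. Within the Tie2-Cre group, mouse 3 had the highest level in 24 of the 45 genes and mouse 4 the lowest in 24, where over all genes these shares were 33.1% and 32.0%. In the MCM set the Tie2-Cre arrays lay at -0.42, -0.21 and -0.47 and the no Cre arrays at 0.36, 0.44 and 0.35.

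**Figure D3:**
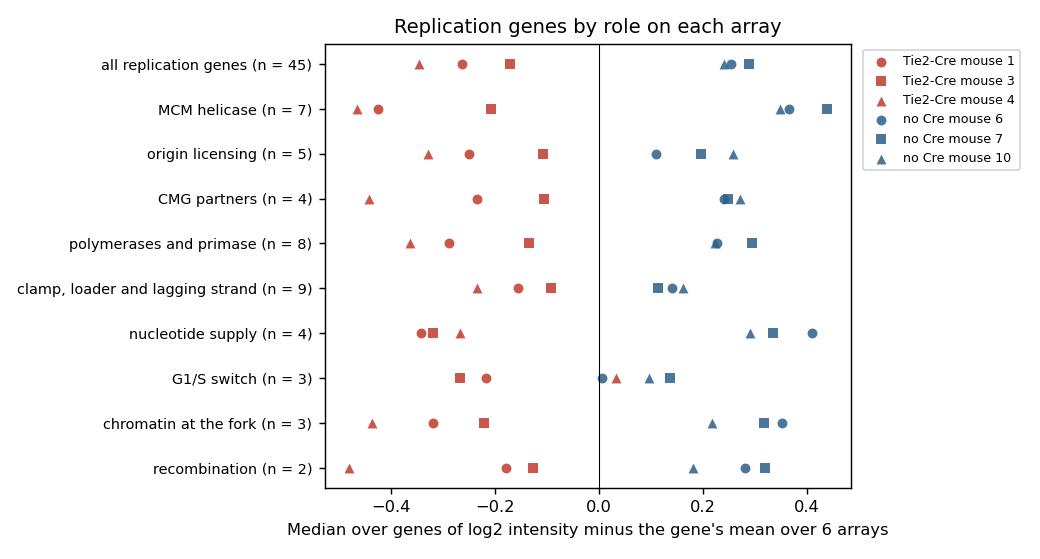
For each role, the median over its genes of the log2 intensity minus the mean of that gene over the 6 arrays (horizontal axis), with 1 point per array (red, Tie2-Cre; blue, no Cre; the marker shape gives the mouse). Over all 45 genes the Tie2-Cre points span -0.35 to -0.17 and the no Cre points 0.24 to 0.29; in the G1/S set of 3 genes Tie2-Cre mouse 4 lies at 0.03, among the no Cre arrays.

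Further genes of the same processes were counted in lists that held none of the 46. Their counts stand beside 7.17% of all genes lower and 4.78% higher. Of 30 other origin and fork genes, 12 were lower and 0 higher (median -0.20), among them Rpa3, the small subunit of replication protein A (-0.57, adjusted p 0.00157), the fork protection gene Tipin (-0.68), Dbf4, the activator of the origin kinase CDC7 (-0.67), and the checkpoint mediator Clspn (-0.51). With mouse 1, 6 or 7 left out 7 were lower. Of 13 other chromatin genes, 8 were lower and 0 higher (median -0.44). The remodeler gene Hells lay at 6.19, 6.28 and 6.33 with Tie2-Cre and at 7.56, 7.57 and 7.53 without Cre (change -1.29, SE 0.068, adjusted p 3.23e-05), a larger change than that of any of the 45 genes. The histone chaperone genes Asf1b (-0.83) and Nasp (-0.61) and the histone acetyltransferase gene Hat1 (-0.71) were lower as well. Of 22 genes of the fork checkpoint and repair, 10 were lower and 0 higher (median -0.35), with the nuclease gene Exo1 (-0.74, adjusted p 0.000676), the fork repair gene Mms22l (-0.66), the PCNA ubiquitin ligase gene Rad18 (-0.56) and the mismatch repair gene Msh6 (-0.54). With mouse 7 left out 5 were lower.

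In nucleotide supply beyond the 4 genes above, 11 of 22 were lower and 2 higher (median -0.23), beside 7.17% and 4.78% of all genes. Deoxycytidine kinase (Dck, -0.75, adjusted p 0.000478), the dUTPase gene Dut (-0.65), the pyrimidine gene Umps (-0.39) and the folate gene Mthfd1 (-0.37) were lower. The higher ones, named after their values were seen, were the mitochondrial folate gene Mthfd2 (0.56, adjusted p 0.0113) and Samhd1, which breaks down deoxynucleotides (0.50, adjusted p 0.0412). Lower genes numbered 6, 5 and 6 with mouse 1, 7 or 10 left out, and 1 gene was higher with mouse 1, 3, 6, 7 or 10 left out.

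Regulators of the switch into S phase moved both ways, with more of them lower. Of 17 cyclins, kinases, E2F factors and other genes of the switch, 8 were lower and 2 higher, beside 7.17% and 4.78% of all genes. The list mixes activators with the repressors E2f7 and E2f8. In 13 of the 17 the change was below 0 (median -0.26), beside 51.1% of all genes. E2f8, which represses E2F targets and is itself induced in S phase, lay at 6.69, 6.70 and 6.75 with Tie2-Cre and at 7.64, 7.45 and 7.54 without Cre (change -0.83, SE 0.074, adjusted p 0.00041). The S phase cyclin gene Ccna2 was lower too (-0.81, adjusted p 0.00153). In the other direction, the cyclin D genes Ccnd1 and Ccnd3, which act earlier in G1, were higher. Ccnd1 lay at 11.87, 11.77 and 11.86 against 11.35, 11.32 and 11.22 (change 0.54, adjusted p 0.00223), and Ccnd3 changed by 0.47 (adjusted p 0.00237). E2f7 was lower as well (-0.52, adjusted p 0.00303). With mouse 4, 6, 7 or 10 left out 5 of these 17 genes were lower, and the count of higher ones was 2 whichever mouse was left out.

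Of 20 inhibitors of the switch, 3 were lower and 1 higher (median -0.12), a share of 15.0% beside 7.17% of all genes lower. The higher one was Cdkn2b, which encodes the CDK4 and CDK6 inhibitor p15. It lay at 10.44, 10.53 and 10.42 with Tie2-Cre and at 9.13, 9.35 and 9.19 without Cre (change 1.24, SE 0.08, adjusted p 8.98e-05), with no overlap. Such a separation upward was seen in 13.6% of all genes. Lower were Rbl1, the retinoblastoma relative p107 (-0.48, adjusted p 0.00762), and Lin9 and Lin54 (-0.43 and -0.34), which belong to a complex that represses cell cycle genes in resting cells and, in another form, activates mitotic ones. With mouse 7 or 10 left out 1 inhibitor was lower. Mitosis genes were lower in 23 of 29 and higher in 0 (median -0.59). Among them were the mitotic kinase gene Cdk1 (-1.05), the cytokinesis gene Anln (-1.02), the topoisomerase gene Top2a (-0.98) and the spindle motor gene Kif11 (-0.95). With mouse 6 or 7 left out 15 were lower. The difference between the mitosis and the replication genes was not tested.

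**Figure D4:**
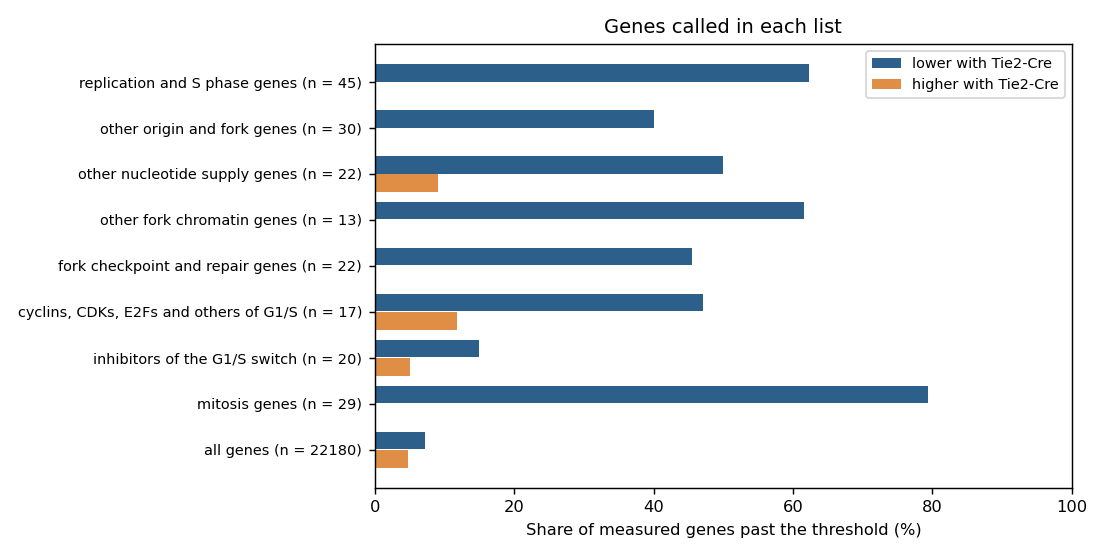
Share of the measured genes of each list past the threshold (adjusted p under 0.05, limma), lower in blue and higher in orange, with the number measured in brackets. The replication and S phase genes stand at 62.2% lower and the inhibitors of the G1/S switch at 15.0%, beside 7.17% lower and 4.78% higher over all genes.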

How the data were processed

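Each RNA was hybridised to 1 Affymetrix Mouse Gene 2.0 ST array. The authors made RMA values with Expression Console, per the submitters' processing notes, with a version not given in the sources used here. What they deposited is linear intensity (5.13 to 17822), already background-corrected and quantile-normalized as RMA does, and its log2 was taken here. Of 41345 probe sets, 23521 carried 1 gene symbol in the platform annotation, 1814 several, and 16010 are unnamed here; 22180 genes were tested after 1341 further probe sets of the same genes were set aside. Of the single-symbol identifiers, 23328 matched a RefSeq gene table. Protein sequences were not used here.

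The comparison of groups used lmFit and eBayes of limma 3.58.1 under R 4.3.3, two-sided and with no covariate. Mouse numbers are not shared between groups, so no mice were paired. The number of arrays limits the precision. On simulated arrays of the 22180 genes the fit recovered 61.2% of 67 genes shifted by 0.5 log2 and 67 of 67 shifted by 1, with 9 false calls. A further 66 were shifted by 2. Far fewer genes were shifted there than the 2652 called in these data. The adjusted p depends on how many genes change, so these rates need not hold here.

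The genes and lists were chosen with earlier results of these data known. The rule named all measured genes of the list, Pfn1, Eng and the sex-linked markers, of each other list the 4 genes with the smallest p, and of a marker list the lowest and highest level. Other names (Pecam1, Cdh5, Egfl7, Mthfd2, Samhd1, Pole3, Pole4, Pold3, Pold4 and E2f7) were chosen after their values were seen. The alternatives repeated the quantile step, centred arrays on their medians, required a mean log2 of at least 5, dropped the dimmest 33.3% of genes, added the 17824 probe sets that lack a single symbol, averaged a gene's probe sets, let eBayes use a trend with robust variances, weighted arrays, called genes by an unadjusted p under 0.05 and 1.5-fold, or omitted 1 mouse at a time.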

Additional observations from a re-analysis of the deposited data

How the results depend on the processing

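The count of lower replication genes (28) lay between 22 and 29 under all alternatives but the rule of an unadjusted p under 0.05 with at least 1.5-fold, which gave 18; 0 were higher under any. Of the 28, 22 kept their call in every alternative that gives an adjusted p; Mcm2, Gins1, Pola2, Rpa2, Brca1 and Brca2 did not. When all probe sets were tested, 5 cyclin, CDK and E2F genes, 1 inhibitor, 15 mitosis genes, 7 nucleotide supply genes and 7 origin and fork genes were lower, and 1 nucleotide supply gene was higher, where more tests share the adjustment. Over all genes the fold rule gave 551 lower and 424 higher, and over the lists 2 lower cyclin, CDK and E2F genes, 3 checkpoint, 0 inhibitor, 15 mitosis, 4 chromatin, 2 nucleotide supply and 3 origin and fork genes, with 0 higher cyclin, CDK and E2F genes and 0 higher nucleotide supply genes. Of the inhibitors, 5 were lower with a minimum mean log2 of 5 and 6 without the dimmest genes or with trend and robust, and 2 were higher in the last 2 settings and after another quantile normalization, which also gave 1 higher checkpoint gene. The cause was not tested.

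With each mouse left out in turn, 22 to 26 replication genes were lower with a median of -0.58 to -0.46, and over all genes 910 to 1253 were lower and 634 to 903 higher. The lower counts were 5 to 7 for cyclin, CDK and E2F genes, 5 to 10 for checkpoint, 1 to 3 for inhibitor, 15 to 20 for mitosis, 7 to 9 for chromatin, 5 to 8 for nucleotide supply and 7 to 11 for origin and fork genes, and 1 to 2 nucleotide supply genes were higher. Gmnn passed without the dimmest genes (adjusted p 0.0448) and with trend and robust (0.0427). No paired analysis was possible because the groups share no mouse number.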
